A study of Mus musculus with 9 samples.

Results

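The 4 genes described here form the core of Reelin signaling: the ligand Reln, the adaptor Dab1 and the receptors Vldlr and Lrp8. They were chosen by name, and all 4 were found among the 21457 genes of the matrix of cholinergic nuclei. Each was followed over the 21 clusters that the deposited annotation gives to these nuclei, comprising 3 clusters of skeletal motor neurons (MNs; S1 to S3), 10 of visceral MNs (V1 to V10) and 8 of interneurons (I1 to I8), and over the dissected spinal cord regions.

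Reelin is a large glycoprotein that neurons secrete into the extracellular matrix. It binds VLDLR and ApoER2, the protein made from Lrp8, and clustering of these receptors leads Src-family kinases to phosphorylate the adaptor DAB1, which then recruits CRK proteins and PI3 kinase and is removed through a CUL5 and SOCS7 ubiquitin ligase. The pathway is best known for guiding migrating neurons in cortex and cerebellum. In the spinal cord it is known for the position of sympathetic preganglionic neurons, which are visceral MNs and settle abnormally in mice without Reelin or DAB1.

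The study sequenced single nuclei of adult mouse spinal cholinergic neurons. In Chat-IRES-Cre::Sun1-sfGFP mice (genotype Chat-iCre:+/wt; SUN-SfGFP:+/wt), Cre made under the Chat gene switches on a fluorescent nuclear envelope protein for good, so any cell that has ever expressed Chat is marked, also one that no longer does. Cords of 8 week old animals were cut into cervical, thoracic and lumbar/sacral pieces, GFP-positive nuclei were sorted, and each region gave 3 10X libraries. Replicate 1 pooled 4 mice (2 males and 2 females), replicate 2 pooled 4 males and replicate 3 pooled 4 females, so that 12 mice gave 9 libraries and a library is a pool, not an animal. All groups carry the same alleles and none was treated, so region is the contrast of the design. Sex cannot be told apart from the pool.

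Of 34231 annotated nuclei, the 16042 typed as cholinergic were analyzed, 747 to 2825 per library. Summed corrected counts (whole numbers that the authors' SCTransform model returns after evening out depth) ran from 9751375 to 19432614 per library, and the median total per nucleus from 4712 to 16127, with the lumbar/sacral libraries at 4712, 7175 and 5701. Levels are given as CPM, the gene's corrected counts per 1000000 corrected counts summed over the nuclei of a cluster in a library with at least 10 such nuclei. Means are over libraries, with the SD. Cervical and thoracic libraries together are called rostral. The male-pool libraries labelled cervical and thoracic (replicate 2) went against the other libraries of their regions: Hoxc5, a gene whose level differs along the cord, stood at 25.4 and 22.5 CPM in cervical replicates 1 and 3 but 73.3 in cervical replicate 2, and at 85.3 and 84.2 in thoracic replicates 1 and 3 but 13.9 in thoracic replicate 2. Hoxa7 and Hoxd8 set cervical replicate 2 apart in the same way, at 14.7 and 2.06 CPM against 5.46 to 6.33 and 0.780 to 1.18 in cervical replicates 1 and 3, but thoracic replicate 2, at 11.9 and 2.09, lay with thoracic replicates 1 and 3 at 10.1 to 15.9 and 1.68 to 2.25. Cluster makeup was turned around between both libraries, as V5 held 5 nuclei in the library labelled cervical replicate 2 and 116 in that labelled thoracic replicate 2. Labels were kept as deposited. A rostral mean over libraries is the same whichever way they are read. The fitted contrasts weigh cervical and thoracic equally, so they depend on the labels where cervical replicate 2 gives no value, as in V5 and I8. The spread within regions used in the fits depends on the labels too. Results that rest on both male-pool libraries are given with and without them. No doublet caller was run, and 33 barcode sequences occurred in more than 1 library.

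Reln lies on the minus strand of chromosome 5 (GRCm38, 21884454 to 22344702), Dab1 on the plus strand of chromosome 4 (103619359 to 104744844), Vldlr on the plus strand of chromosome 19 (27216484 to 27254231) and Lrp8 on the plus strand of chromosome 4 (107802261 to 107876840). Reads from introns and exons both count toward a gene in this nuclear preparation, and the loci differ in length from 37748 bases for Vldlr to 1125486 for Dab1. CPM is not corrected for that length, so levels were compared between clusters and regions, never between the 4 genes.

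The ligand was concentrated in the interneuron cluster I8. Its 329 nuclei were 2.05% of all nuclei analyzed and held 54.2% of all corrected Reln counts (4350 of 8021). Reln stood at 1905 and 2171 CPM in I8 of cervical replicates 1 and 3, at 1838, 1602 and 1497 in thoracic replicates 1 to 3, and at 2027, 1625 and 1618 in lumbar/sacral replicates 1 to 3. All 8 libraries with I8 lay close together, with a mean of 1786 ± 237 (SD, n = 8). The library labelled cervical replicate 2 had 1 nucleus in I8 and gave no value. Every I8 nucleus (100%) had at least 1 Reln count, also after each nucleus was thinned to 4600 counts, and the median nucleus had 12, with a highest count of 42.

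I8 was labelled an interneuron cluster, and its cholinergic and inhibitory marker sums each came mostly from a single gene. Summed over the cholinergic markers in the matrix (Chat, the acetylcholine-synthesizing enzyme, and Slc5a7, the choline transporter), I8 libraries held 45.4 to 153 CPM. Slc18a3 was not used here. Nearly all of the sum came from Chat at 45.4 to 143 CPM, with Slc5a7 at only 0 to 14.6. In V5, Slc5a7 stood at 234 to 485 CPM. The inhibitory markers (Slc32a1, Gad1, Gad2 and Slc6a5) summed to 765 to 1217 CPM, nearly all of it from the glycine transporter Slc6a5 at 736 to 1151, with Slc32a1 at 49.8 or less, Gad1 at 13.3 or less and Gad2 at 11.3 or less. The interneuron marker Mpped2 stood at 512 to 957 CPM, the visceral MN markers Zeb2 and Fbn2 at 0 to 20.98 and 0 to 25.2, and the astrocyte markers summed to 0 to 6.17.

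The next clusters by mean Reln level were V3 at 189 ± 250 CPM (n = 9) and V5 at 169 ± 45.5 (n = 7), followed by V6 at 114 ± 175 (n = 8), V7 at 94.2 ± 57.3 (n = 9), V2 at 73.4 ± 89.4 (n = 9) and I7 at 68.3 ± 29.8 (n = 6). V5 was a steady further source. Reln in V5 stood at 163 and 232 CPM in cervical replicates 1 and 3, at 146 and 159 in thoracic replicates 1 and 2, and at 230, 111 and 141 in the lumbar/sacral libraries. The ranges of rostral and lumbar/sacral V5 overlapped. V5 held 9.70% of all Reln counts in 3.85% of the nuclei, and V3 held 9.03% in 4.50%. In the plot of Reln by cluster, the SD of V3, V6 and V2 exceeded their means because their libraries fell apart by region, as described further on.

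**Figure D1:**
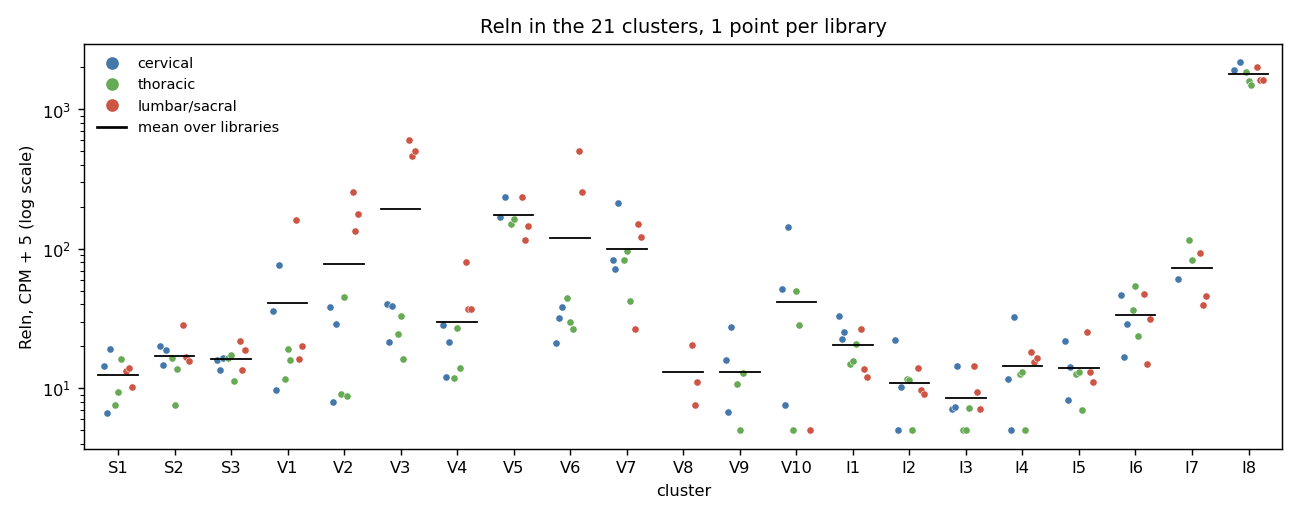
Reln level (CPM + 5, log axis) in each of the 21 clusters, a point per library colored by region, with a bar at the mean over libraries. I8 lies alone near 1786 CPM, and the lumbar/sacral points of V3, V2 and V6 lie above their rostral points.

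At the low end, Reln stood at 3.57 ± 3.58 CPM in I3, 5.94 ± 5.15 in I2 and 7.38 ± 4.17 in S1 (n = 9 each). The mean in I8 was 500 times that in I3. Of the 20 neighboring pairs in this order of clusters, 2 differed by more than the spread of their difference over the libraries they share: I8 over V3 (8 of 8 libraries) and I7 over V10 (4 of 4). The remaining 18 neighbors could not be ordered. The order is a description with no test, since the clusters were drawn from the same nuclei and the genes were picked with this pattern known. Over clusters, mean log2(CPM + 5) of Reln spanned 7.80, a wider range than that of 99.96% of the 12131 genes with a mean of at least 10 CPM in some cluster.

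Most nuclei outside a few clusters carried no Reln count. The pooled share of nuclei with at least 1 count was 35.1% in V5, 30.2% in V3, 26.6% in V7, 30% in I7 and 4.32% in S1, at median totals of 7258.5, 7159, 8057, 7059.5 and 7413. The median totals of S1 and V5 were close. The lowest share was that of I3, at 2.6% with a median total of 6053.5, and a share near this level was read as background. V8, a cluster with 463 of its 467 nuclei in lumbar/sacral libraries, stayed close to it with 3.46% of those 463 nuclei, and S1 did too. Averaged over libraries, the V5 share was 36.1% ± 5.7 (n = 7), 30.8% ± 5.9 after thinning, and its lowest library was at 29.8%.

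Within a cluster, sums cannot tell fewer positive nuclei from less RNA in each, so both were counted. In I8 the median nucleus had 15.5 Reln counts in rostral libraries and 10 in lumbar/sacral libraries, at median totals of 8242 and 5822, and the CPM of the 2 groups overlapped. In V5 the share with at least 1 count was 32.8% of 412 rostral and 39.8% of 206 lumbar/sacral nuclei. Counts of 10 or more occurred in 3.40% of the rostral V5 nuclei and in 0 of the 206 lumbar/sacral ones, which allows a share of up to 1.46% at their lower depth.

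Reln differed by region in some visceral MN clusters and not detectably in I8 or V5. Lumbar/sacral V3, V2 and V6 each held many times more Reln than their rostral counterparts, and these were the 3 clusters called among 13 tested. The question is where along the cord each Reln-bearing cluster expresses the ligand. Each contrast set the lumbar/sacral libraries against the mean of cervical and thoracic on log2(CPM + 5) in limma, with Benjamini-Hochberg adjustment over all genes tested in that cluster and a call at an adjusted p under 0.05. The p-values measure the spread between libraries of pooled mice.

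Reln in V3 stood at 35.2, 16.6 and 33.8 CPM in cervical replicates 1 to 3 and at 19.4, 28.2 and 11.1 in thoracic replicates 1 to 3. It stood at 602, 458 and 495 CPM in lumbar/sacral replicates 1 to 3. Every lumbar/sacral library lay far above every rostral one. The mean rose from 24.1 to 518 CPM, a log2 difference of 4.24 (SE 0.269; limma adjusted p = 8.99e-06), the second lowest p of 10077 genes. In V3, 0.804% of genes were called higher in lumbar/sacral libraries and 2.62% had all lumbar/sacral libraries above all rostral ones. Without both male-pool rostral libraries the difference was 4.21 (adjusted p = 4.84e-06), and over all alternatives it ran from 3.63 to 4.47.

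More nuclei of lumbar/sacral V3 carried Reln, and those that did carried more of it. The share of V3 nuclei with at least 1 count was 65.5% to 73.9% in the lumbar/sacral libraries and 6.25% to 15.9% in the rostral ones. After thinning it was 55.6% to 71.8% against 3.12% to 9.29%. Median totals of V3 nuclei were 4520, 6496 and 4816 in the lumbar/sacral libraries and 7019 to 15936 in the rostral ones. The median lumbar/sacral V3 nucleus had 2 Reln counts, the upper quartile 4 and the highest 18, while the upper quartile of rostral V3 nuclei was 0.

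Reln in V2 stood at 33.4, 2.97 and 24.0 CPM in the cervical libraries, at 4.08, 40.2 and 3.79 in the thoracic libraries and at 251, 129 and 172 in the lumbar/sacral libraries. The groups did not overlap, as the lowest lumbar/sacral library was above the highest rostral one, thoracic replicate 2. The mean rose from 18.1 to 184 CPM (log2 difference 3.35, SE 0.575; limma adjusted p = 0.00546), where 1.53% of 10318 genes were called higher and 3.83% did not overlap in this direction. Within the rostral libraries, cervical replicates 1 and 3 and thoracic replicate 2 were high and the others low, so the rostral spread follows the split seen for Hoxc5. Without both male-pool rostral libraries the difference was 3.40 (adjusted p = 4.16e-05). The share of V2 nuclei with Reln was 38.3% to 40.9% in lumbar/sacral and 3.05% to 19.0% in rostral libraries, and 33.3% to 38.9% against 1.59% to 14.3% after thinning.

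Reln in V6 stood at 16.0, 26.8 and 33.2 CPM in the cervical libraries, at 39.2, 25 and 21.8 in the thoracic libraries and at 502 and 249 in lumbar/sacral replicates 1 and 2. Those 2 values rest on 13 and 10 nuclei, and lumbar/sacral replicate 3, with 7 nuclei, was left out of the fit. Both lay above all rostral libraries. The mean rose from 27.0 to 376 CPM (log2 difference 3.53, SE 0.367; limma adjusted p = 0.00204), where 1.97% of genes were called higher and 9.78% did not overlap in this direction. Of the 13 nuclei 92.3% carried Reln, of the 10 nuclei 50%, and in rostral libraries 5.56% to 14.3%. Without both male-pool rostral libraries the difference was 3.52 (adjusted p = 0.0326).

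**Figure D2:**
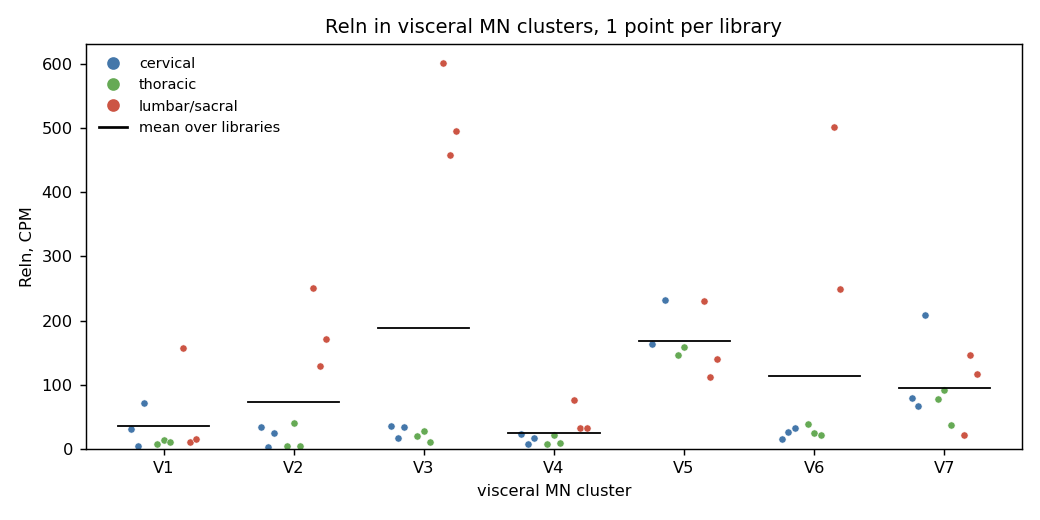
Reln level (CPM, linear axis) in visceral MN clusters V1 to V7, a point per library colored by region and a bar at the mean over libraries. In V3, V2 and V6 all lumbar/sacral points lie above all cervical and thoracic points, while in V5 and V7 the regions overlap.

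V4 was the next cluster by p. Its Reln level was 6.80 to 23.7 CPM in rostral libraries and 75.6, 31.9 and 32 in lumbar/sacral ones, and the groups did not overlap, as for 5.11% of genes in this direction. The log2 difference of 1.42 (SE 0.393) did not pass the adjustment (limma adjusted p = 0.0930). The share of V4 nuclei with Reln was 7.97% of 502 rostral and 9.38% of 160 lumbar/sacral nuclei, and the highest count in a nucleus was 6 and 10.

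In V5, the log2 difference of Reln was -0.16 (SE 0.251; limma adjusted p = 0.834), and in I8 it was -0.06 (SE 0.161; adjusted p = 0.962). V7 had its highest library in cervical replicate 3 at 209 CPM and its lowest in lumbar/sacral replicate 1 at 21.9, with a difference of -0.14 (SE 0.507; adjusted p = 0.955). V1 was high in lumbar/sacral replicate 1 alone, at 157 CPM against 11.3 and 15.1 in the other lumbar/sacral libraries and 4.81 to 71.9 in rostral ones (difference 0.81, SE 0.752; adjusted p = 0.760). In S1, I2, I3 and I5 Reln stayed under the filter of 10 CPM in 3 libraries and was not tested, and V8, V9, V10 and I7 had too few libraries for a fit. V10 had 13.6% of 154 rostral nuclei with Reln and 0 of 35 lumbar/sacral nuclei, which allows a share of nuclei with a count of up to 8.57%, at median totals of 9046 and 5714.

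The size of the regional difference itself was compared between clusters, a comparison chosen after the values were seen. In each library, the log2 level in V5 or I8 was subtracted from that in V3, and the remainder was fitted by region. The lumbar/sacral difference of Reln was larger in V3 than in V5 by 4.11 on the log2 scale (SE 0.315; limma adjusted p = 0.0103; 7 libraries; 2 genes of 10723, or 0.0187%, called higher). Without both male-pool rostral libraries it was 4.197 (adjusted p = 0.0452). Omitting cervical replicate 1 or 3, or any lumbar/sacral replicate, gave 3.98 to 4.29 with adjusted p from 0.0505 to 0.233, so the call did not survive there. Against I8 the excess of V3 was 4.15 (SE 0.326; adjusted p = 0.000505; 8 libraries; 0.19% called higher), and 4.36 with a pseudocount of 1 (adjusted p = 0.0554). For V2 and V6 against V5 the excess was 2.97 (limma adjusted p = 0.214; 0.046% of genes called higher) and 3.58 (adjusted p = 0.0745; 0% called higher), which did not pass. With a pseudocount of 20 they were 2.35 (limma adjusted p = 0.00229, 45 of 10859 genes called higher) and 3.07 (adjusted p = 0.00936, 42 of 10412). Without lumbar/sacral replicate 1 or 2 the excess of V6 over V5 was 3.59 or 3.57, each fit leaving 1 lumbar/sacral library.

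Other genes differed between regions within these clusters too. In V3, the visceral MN marker Fbn2, an extracellular matrix fibrillin, was 1102 to 1350 CPM in lumbar/sacral and 497 to 830 in rostral libraries. The GABA-synthesizing enzyme Gad2 was 37.3 to 71.2 against 0 to 22.0 CPM, and Slc5a7 240 to 314 against 320 to 638. The 4 inhibitory markers summed to 40.7 to 88.4 CPM in lumbar/sacral and 8.36 to 36.3 in rostral V3, with Slc32a1, Gad1 and Slc6a5 each at 7.37 or less in lumbar/sacral libraries. Slc6a5, at 736 to 1151 CPM in I8, was at 0 to 7.37 CPM in lumbar/sacral V3. Fbn2 also stood apart in V6, at 734 to 1717 against 54.0 to 118 CPM, and in V2, at 1180 to 1493 against 620 to 988. Astrocyte, oligodendrocyte, oligodendrocyte precursor, microglial and endothelial marker sums overlapped between regions in V3. In V2, the oligodendrocyte markers summed to 25.1 to 36.0 CPM in lumbar/sacral and 14.4 to 22.8 in rostral libraries, and the cholinergic markers to 404 to 494 against 536 to 1015. In V6, Gad2 was 14.7 to 48.6 CPM against 1.17 to 5.07, the inhibitory markers summed to 44.0 to 64.8 against 9.33 to 25.04, the cholinergic markers to 502 to 543 against 557 to 867 and the skeletal MN markers Tns1 and Prph to 32.4 to 117 against 147 to 298. None of these sums overlapped between regions. The glial and endothelial sums otherwise overlapped in V2 and V6. V5, where Reln did not differ detectably, had marker sums without overlap too. Its cholinergic markers summed to 433 to 483 CPM in lumbar/sacral and 528 to 753 in rostral libraries. Its inhibitory markers summed to 37.0 to 46.8 against 0 to 31.4 CPM and its skeletal MN markers to 67.6 to 105 against 166 to 191. Of all genes, 2.62% in V3, 3.83% in V2 and 9.78% in V6 had every lumbar/sacral library above every rostral one. In V5, 3.98% had every lumbar/sacral library below every rostral one. The shares in the other direction are not given here, and all of these are shares of single genes, not of marker sums. The part of these markers in the Reln results was not tested.

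Over the class of visceral MNs as a whole, Reln stood at 55.3, 18.1 and 97.7 CPM in cervical, 25.4, 64.8 and 14.9 in thoracic, and 189, 129 and 134 in lumbar/sacral libraries. The lumbar/sacral libraries all lay above the rostral ones, as for 5.31% of genes. The class holds different clusters by region: 463 of 467 V8 nuclei came from lumbar/sacral and 243 of 247 V9 nuclei from rostral libraries, so cluster makeup and level within clusters cannot be told apart here. The log2 difference of 1.85 (SE 0.494) had a limma adjusted p of 0.0844 and was not called, where 4.27% of 10031 genes were. Without both male-pool rostral libraries it was 1.80 with an adjusted p of 0.00739, and without thoracic replicate 2 alone it was 2.10 with an adjusted p of 0.0408. In skeletal MNs, Reln was 7.47 to 15.6 CPM with overlapping regions. In interneurons it was 22.5 to 244 CPM, and the lowest library, cervical replicate 2, was the one with a single I8 nucleus.

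None of the 12 pairs of gene and class was called in either region contrast. For lumbar/sacral against rostral, 1 of the 12 had an unadjusted limma p under 0.05, Reln in visceral MNs. For thoracic against cervical, 0 of the 12 had one, the lowest adjusted p was 0.721, the log2 differences ran from -0.59 to 0.22, and 0% of all genes were called in any class. That contrast rests on the libraries whose labels are in doubt.

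Dab1, the adaptor that carries the signal inside the receiving cell, was highest in MN clusters and lowest in interneuron clusters, I8 among the low ones. Its highest means were in S3 at 5197 ± 987 CPM (n = 9), V10 at 5111 ± 1230 (n = 7), V1 at 4863 ± 1129, V2 at 4633 ± 1198 (n = 9 each) and V5 at 4139 ± 1522 (n = 7). Its lowest were in I5 at 952 ± 292, I8 at 811 ± 218 (n = 8), I4 at 449 ± 127 and I3 at 138 ± 50.5. The interneuron clusters I7, at 3098 ± 286 CPM (n = 6), and I2, at 2216 ± 415 (n = 9), had means above S1 at 2157 and S2 at 1998. Dab1 in I8, the cluster richest in ligand, stood at 797 and 1209 CPM in cervical replicates 1 and 3, at 881, 557 and 601 in the thoracic libraries and at 975, 839 and 626 in the lumbar/sacral libraries. All 8 values lay below every library of every MN cluster.

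Of 20 neighboring pairs in the Dab1 order, 6 differed beyond the spread of their difference, among them I8 over I4 (8 of 8 libraries) and I4 over I3 (9 of 9). The highest mean was 37.7 times the lowest, and the log2 range over clusters of 5.26 exceeded that of 98.0% of genes. Visceral MNs held 50.3% of all Dab1 counts, skeletal MNs 36.9% and interneurons 12.8%, while they made up 34.99%, 31.5% and 33.5% of the nuclei.

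Dab1 was found in nearly every nucleus outside I3 and I4. All nuclei of S3, V2, V3, V5 and V6 had at least 1 count, as did 99.1% of I8. In I4 the pooled share was 81.1%, and in I3 it was 53.4%, or 56.1% ± 17.9 over libraries and 36.2% ± 13.8 after thinning. The median I3 nucleus with Dab1 had 1 count, against 35 in S3.

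**Figure D3:**
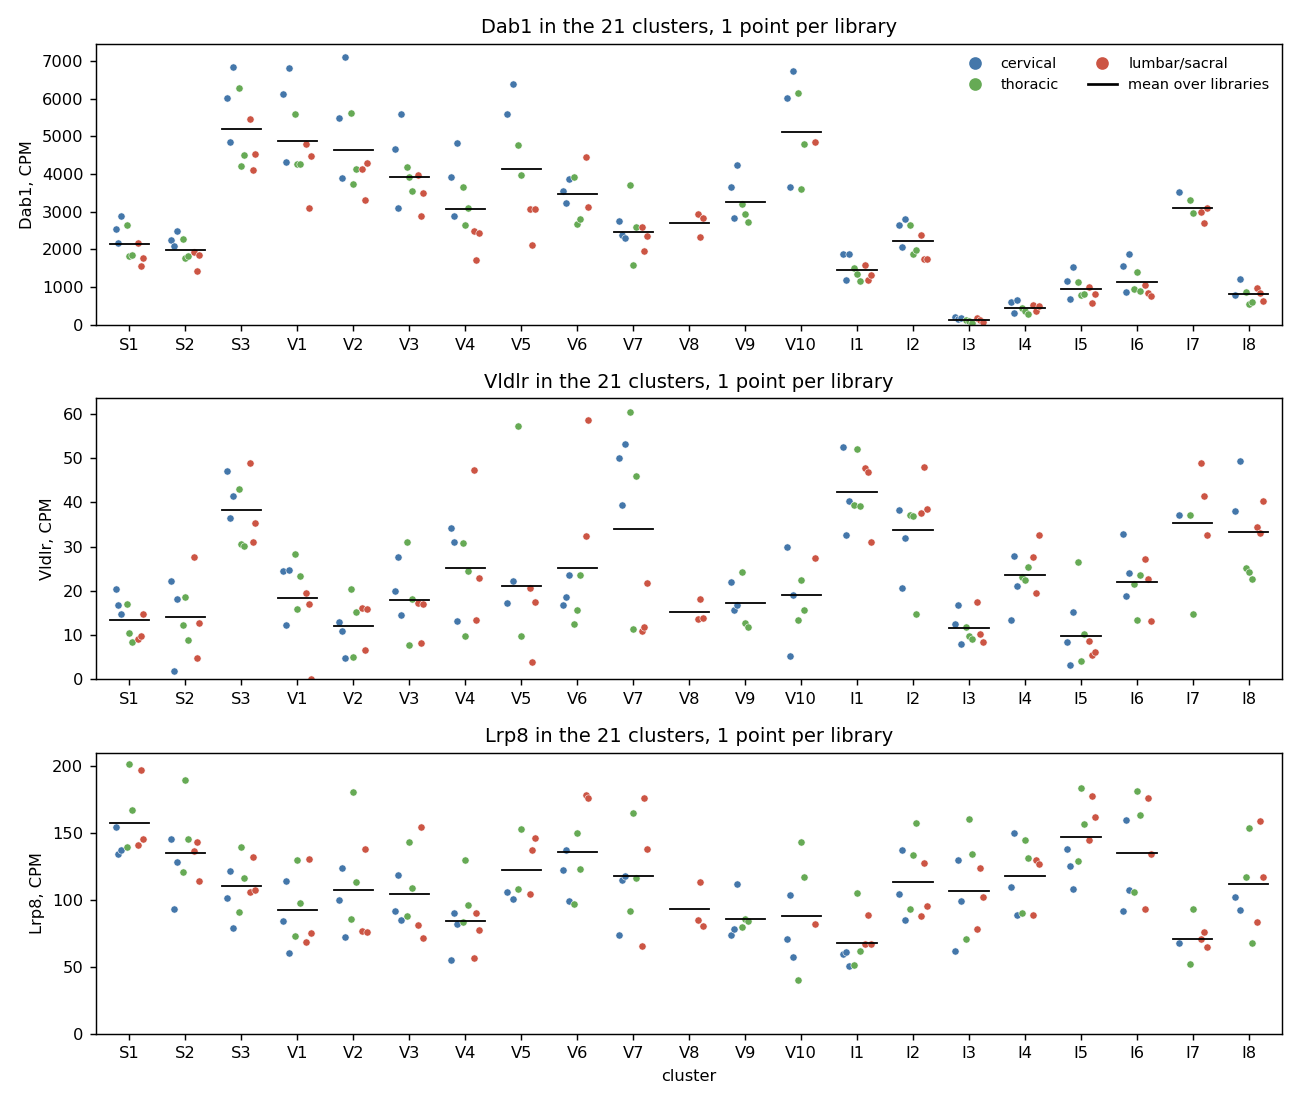
Levels of Dab1, Vldlr and Lrp8 (CPM, linear axes) in the 21 clusters, a point per library colored by region and a bar at the mean over libraries. Mean Dab1 ranges from 5197 CPM in S3 to 138 in I3, while the points of neighboring clusters overlap for Vldlr and Lrp8.

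By region, the fitted log2 difference of Dab1 was negative in 15 of the 17 clusters. In I8 it was -0.02, at means of 809 rostral and 813 lumbar/sacral CPM. In limma, 0 of 17 clusters were called (2 with an unadjusted p under 0.05). Over all genes, 0 were called in S1 and S2, 1.38% in V5, 2.74% in V4 and 8.89% in V6. Libraries differed across clusters in common: among the 14 clusters with a value in all 9 libraries, cervical replicate 3 was the highest in 11 and lumbar/sacral replicate 2 the lowest in 9. The 17 clusters are therefore not independent views of the regional difference.

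The Dab1 difference with the lowest p was in V5. There Dab1 stood at 5597 and 6375 CPM in cervical replicates 1 and 3, at 4777 and 3960 in thoracic replicates 1 and 2, and at 3061, 2130 and 3074 in the lumbar/sacral libraries. The groups did not overlap, as for 3.98% of genes in this direction. The log2 difference was -0.91 (SE 0.225; limma adjusted p = 0.101), in a cluster where 0.741% of genes were called lower. With the pool as a replicate block, which stands on each cord having been cut into the 3 regions, it was -0.89 with an adjusted p of 0.00476. Without thoracic replicate 2, which leaves 1 thoracic library assumed to vary like the rest, it was -0.97 with an adjusted p of 0.0446. In V4, Dab1 was 2643 to 4808 CPM in rostral libraries and 1722 to 2479 in lumbar/sacral ones, without overlap as for 2.58% of genes, with a difference of -0.65 (adjusted p = 0.265; 0.0470 with the replicate block). In V3, where Reln differed most, the Dab1 difference was -0.25 (SE 0.228; adjusted p = 0.916), with ranges of 3106 to 5581 and 2900 to 3980 CPM.

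**Figure D4:**
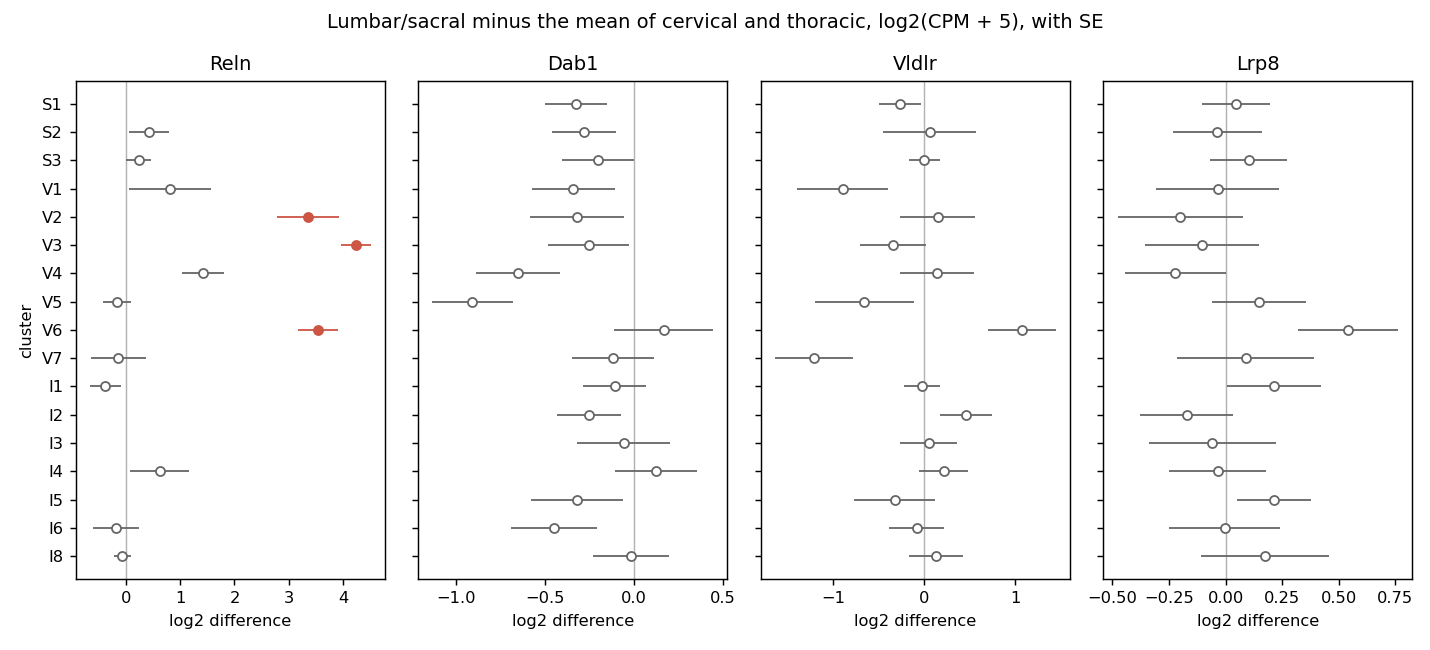
Lumbar/sacral minus rostral difference on the log2(CPM + 5) scale, with its SE, for Reln, Dab1, Vldlr and Lrp8 in each cluster fitted, with filled points where the adjusted p is under 0.05 and separate horizontal scales. Reln stands at 3.35 to 4.24 in V2, V6 and V3, and the other 3 genes lie between -1.21 and 1.08.

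Neighboring clusters could not be ordered for either receptor. Vldlr, the very low density lipoprotein receptor, had its highest mean in I1 at 42.4 ± 7.86 CPM (n = 9), then S3 at 38.3 ± 7.21 (n = 9), I7 at 35.3 ± 11.5 (n = 6), V7 at 33.9 ± 20 (n = 9), I2 at 33.7 ± 10.1 (n = 9) and I8 at 33.4 ± 9.18 (n = 8). Its lowest was in I5 at 9.77 ± 7.26 (n = 9), and the I1 libraries, at 31.0 to 52.5 CPM, all lay above those of I5, at 3.29 to 26.6. No neighboring pair of the 20 differed beyond its spread, and the highest mean was 4.34 times the lowest. At these levels a few counts decide a value: 24.7% of I1 nuclei and 7.19% of I5 nuclei had a Vldlr count, at median totals of 6235 and 7601, and the median nucleus with Vldlr had 1. After thinning the shares were 19.4% ± 7.0 and 4.59% ± 2.29 over libraries.

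Lrp8, the ApoER2 gene, had its highest mean in S1 at 158 ± 25.7 CPM, followed by I5 at 147 ± 25.1, V6 at 136 ± 31.1 (n = 8), S2 at 135 ± 26.6 and I6 at 135 ± 36.1 (n = 9 where not given). Its lowest was in I1 at 68.1 ± 17.9, the cluster with the highest Vldlr. No neighboring pair differed beyond its spread. The highest mean was 2.31 times the lowest, and its log2 range of 1.17 exceeded that of 52.0% of genes, as compared with 74.0% for Vldlr. Lrp8 was found in 69.8% of S1 and 34.9% of I1 nuclei, and in 52.7% ± 5.9 and 26.1% ± 5.4 over libraries after thinning. The library labelled thoracic replicate 2 had the highest Lrp8 in 9 of the 14 clusters with all libraries.

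In I8 and V5 the mean level of each receptor lay between the highest and the lowest cluster mean. In V2 and V3 both receptors overlapped between regions, and V6 is described below. Vldlr in I8 was 38.0 and 49.3 CPM in cervical replicates 1 and 3, 25.2, 24.2 and 22.7 in the thoracic libraries and 34.5, 33.2 and 40.3 in the lumbar/sacral libraries, with all values above the mean of I5. Lrp8 in I8 was 102 and 92.5, 117, 153 and 68.1, and 83.4, 159 and 117 CPM in the same libraries, and the regions overlapped. In V5, Vldlr ran from 3.98 to 57.2 CPM (21.2 ± 17.1, n = 7) and Lrp8 from 101 to 153 (122 ± 22.2, n = 7).

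For each receptor, 0 of 17 clusters were called by region in limma (2 for Vldlr and 1 for Lrp8 with an unadjusted p under 0.05). Over all genes, 8.89% were called in V6 and 0.0783% in V7. In V6, Vldlr stood at 12.5 to 23.7 CPM in rostral libraries and at 32.4 and 58.7 in lumbar/sacral replicates 1 and 2 (log2 difference 1.08; adjusted p = 0.114). Without lumbar/sacral replicate 1, which leaves 1 lumbar/sacral library of 10 nuclei assumed to vary like the rest, it was 1.46 with an adjusted p of 0.0278. In the same cluster Lrp8 stood at 97.1 to 150 CPM in rostral and at 178 and 176 in lumbar/sacral libraries (difference 0.54; adjusted p = 0.179). Neither receptor overlapped between regions in V6, as for 9.78% of genes in this direction. In V7, Vldlr was 11.4 to 60.5 CPM in rostral and 10.9 to 21.8 in lumbar/sacral libraries (difference -1.21; adjusted p = 0.388).

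Counts of the ligand and of a receptor occurred together in some nuclei. In I8, 65.2% ± 14.7 (n = 8) of nuclei had Reln, Dab1 and at least 1 of the receptors Vldlr and Lrp8 together. The share was 31.5% ± 12 (n = 3) in lumbar/sacral V3, 24.0% ± 5.1 (n = 7) in V5, 23.8% ± 16.2 (n = 9) in V7 and 0.673% ± 2.02 (n = 9) in I3. These shares grow with depth, and since every I8 nucleus had Reln, in I8 the share is simply that of Dab1 with a receptor. The latter, without regard to Reln, was 41.98% ± 8.44 (n = 3) in V8, the lowest of the MN clusters, and 74.9% ± 12.8 (n = 9) in S1, at median totals of 4971 and 7413. It was 43.6% in lumbar/sacral V3 and 64.5% in V5, where Reln alone was found in 70.0% and 36.1% of nuclei. Whether Reln occurred with Dab1 and a receptor more often than these separate shares would give was not tested.

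**Figure D5:**
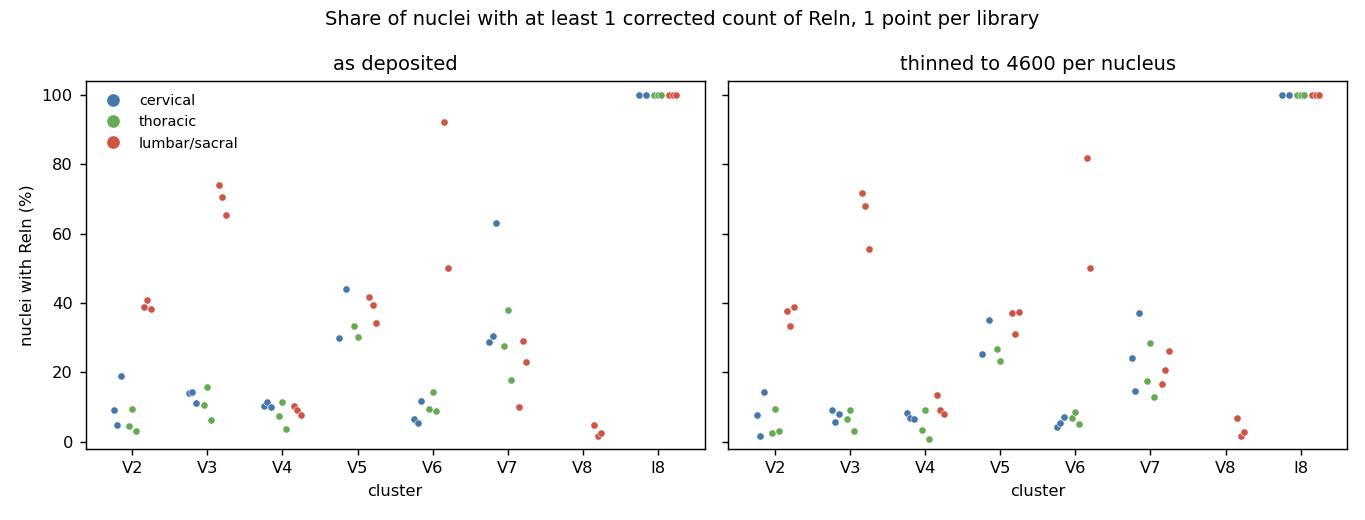
Share of nuclei (percent) with at least 1 Reln count in V2 to V8 and I8, as deposited (left) and after thinning to 4600 counts per nucleus (right), a point per library colored by region. I8 stands at 100%, and lumbar/sacral V3 stands at 65.5% to 73.9% against 6.25% to 15.9% in rostral libraries as deposited.

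Nuclei with and without Reln were compared within clusters. In the 11 clusters with at least 10 nuclei of each kind in 3 libraries, the share with Dab1 was close to 100% in both and could hardly differ. The Dab1 level differed beyond the spread in 2 of the 11, at 5341 CPM with Reln and 5793 without in V1 and 3103 and 3463 in V6, lower in all 3 libraries of each. The share with Vldlr differed beyond the spread over libraries in 1 of the 11, S2, at 8.99% of nuclei with Reln and 13.6% of those without. The share with Lrp8 differed in 1 of the 11, V7, at 66.5% and 53.7%, in 4 of 5 libraries, and its level differed in 1 of the 11, V5, at 132 and 121 CPM, in 5 of 6 libraries. The Vldlr level differed in 0 of the 11. Beyond the spread means here that the mean difference exceeded its SD over 3 to 6 libraries. That is not a test, and no share over other genes was computed. Across the 21 clusters, Pearson correlations of mean log2(CPM + 5) between the 4 genes ran from -0.41 for Vldlr with Lrp8 to 0.32 for Reln with Vldlr. These are descriptions over clusters that share libraries.

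The genes whose cluster pattern was most like that of Reln were Gm8113 (Pearson r = 0.88 over 21 clusters), Gm10475 (0.86), Gpr137b (0.83), Gm29282 (0.81) and Gm12153 (0.81), each highest in I8 and next in V5. Gm10475 is annotated antisense within the Reln locus and reached 73.6 CPM in I8. Whether counting used strand is not given in the sources used here, so reads of Reln and of Gm10475 cannot be told apart with certainty. For Dab1 the closest were Igsf21 (0.86), Hoxc5 (0.85), Chst8 (0.85), Synj2 (0.84) and Tspan18 (0.84), each lowest in I3 except Tspan18, which was lowest in I4. For Vldlr they were 2900011O08Rik (0.73), Celf2 (0.67), Bcl11b (0.66), Sorcs2 (0.66) and Car10 (0.65). For Lrp8 they were Uhrf1bp1l (0.86), Zkscan3 (0.85), Tacc1 (0.82), Fan1 (0.80) and Idnk (0.79), 4 of them lowest in I1 like Lrp8, with Zkscan3 lowest in I7.

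Other genes of the pathway, a list of 65 by role, were followed in the same manner, and 57 of them had a mean of at least 10 CPM in some cluster. Among proteases that cleave Reelin, Adamts2 ranged from 226 CPM in S1 and 208 in I8 to 1.03 in I3. Adamts3 ran the other way, at 231 CPM in I5, 170 in V5, 91.7 in V3 and 1.80 in I8. Plat, tissue plasminogen activator, was lowest in I8 too, at 1.34 CPM, and highest in S3 at 29.0. Between the ligand-bearing clusters, I8 held more Adamts2 than V5 (208 against 11.7 CPM) and V5 more Adamts3 than I8, as mean levels with no test.

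Other binders of the receptors differed in the cluster where they were highest. Clu, clusterin, was highest in I8 at 46.4 CPM, the ephrin Efnb2 was highest in I5 at 55.9, and Efnb3 was highest in I1 at 18.1. Of related receptors, Lrp2 (megalin) was found mainly in I5 at 86.5 CPM and stood at 0.774 in I8, and Itga3, the integrin subunit named as a Reelin partner, ranged from 19.1 in V8 to 86.6 in S3. Lrp1b ranged from 1853 in V6 to 5991 CPM in I7. Mylip, a ubiquitin ligase that removes lipoprotein receptors, ranged from 2.80 CPM in V6 to 56.1 in S1.

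The kinases of DAB1 were present in every cluster. Fyn ranged from 131 CPM in S1 to 246 in I7, Src from 19.7 in I2 to 37.2 in V7 and Yes1 from 26.7 in V10 to 75.5 in S1. Among DAB1 partners, the adaptor Nck2 was highest in V3 at 87.8 CPM, Rap1b was highest in V8 at 74.4, and the DAB1 relative Dab2 was highest in V5 at 32.1. Among genes further downstream, the NMDA receptor subunit Grin2a ranged from 51.0 in I1 to 1792 in V2, Grin2b from 101 in I5 to 1021 in V10, and the cadherin Cdh2 from 51.2 in I5 to 487 in V9.

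By region, 5 of the 50 pathway genes tested in visceral MNs were called, or 10%, where 4.27% of all genes were. Of the list 2 were higher and 3 lower, as 2.32% and 1.94% of all genes were, and the list's median log2 difference was -0.01 against 0.06 over all genes. Adamts2 fell from 50.3 to 95.8 CPM in rostral libraries to 21.3, 18.3 and 23.9 in lumbar/sacral ones (log2 difference -1.41, SE 0.190; limma adjusted p = 0.00343). Grin2b fell from 505 to 583 CPM to 244, 302 and 341 (-0.87, SE 0.119; adjusted p = 0.00357), and Cdh2 fell from 265 to 408 CPM to 227, 166 and 184 (-0.75; adjusted p = 0.0241). Clu rose from 4.28 to 17.7 CPM to 24.5, 36.2 and 24.4 (1.21; adjusted p = 0.0299), and Pik3r1, a PI3 kinase regulatory subunit, rose from 29.4 to 41.1 CPM to 58.1, 63.9 and 46.3 (0.60; adjusted p = 0.0391). For each of the 5 the groups did not overlap, as for 5.31% of all genes with lumbar/sacral libraries higher and 4.32% with them lower. Since the class holds different clusters by region, these values do not tell a change within a cluster from a change of makeup.

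The count of pathway calls depended on the libraries, with 2 without cervical replicate 1, cervical replicate 3 or lumbar/sacral replicate 2, 3 without thoracic replicate 3 or lumbar/sacral replicate 1 or 3, and 8 with the replicate block, where 7.35% of all genes were called. Adamts2 and Grin2b were called in all 16 alternatives, Cdh2 in 11, Clu in 10 and Pik3r1 in 6. In skeletal MNs and in interneurons 0 of 51 pathway genes were called by limma for this contrast (2 and 3 with an unadjusted p under 0.05), where 0.01% and 0.051% of all genes were. In interneurons 1 of 51, Adamts3, was called with the replicate block, without thoracic replicate 2, or without both male-pool rostral libraries (log2 difference -0.98, -1.09 and -1.06).

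Within clusters, pathway calls numbered 4 of 52 in V2 (3.07% of all genes called), 2 of 52 in V3 (1.55%), 2 of 51 in V4 (2.74%), 1 of 51 in V5 (1.38%), 3 of 49 in V6 (8.89%) and 1 of 53 in V7 (0.0783%). Grin2b fell in lumbar/sacral V2 (-1.35), V3 (-0.96) and V5 (-0.98), and Cdh2 fell in V2 (-1.22) and V3 (-0.82). In V2, Adamts2 (-2.24) and Efnb2 (-1.92) fell as well. Clu rose in V4 (1.89), and Grin2a fell in V4 (-1.46) and V7 (-1.30). In V6, Lrp1 (-0.81), Plat (-2.30) and the actin-severing protein gene Cfl1 (-1.97) fell, beside 6.92% of all genes called lower there. In I8, 0 of 49 pathway genes were called in limma (1 with an unadjusted p under 0.05), where 0.0869% of all genes were.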

How the data were processed

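Single-nucleus RNA was measured in 9 libraries, 3 per region. Per the labels and the study's methods, intronic as well as exonic reads were counted by the authors, who ran Cell Ranger (3.1.0) on a pre-mRNA version of mm10 and then SCTransform in Seurat. The authors deposited a matrix of 21457 genes by 16042 nuclei whose values are a score, whole SCTransform-corrected counts rather than raw reads, and an annotation of cluster, class and region for each nucleus, used as deposited. There were 0 unused columns of single samples. Each nucleus was assigned to its library by its barcode suffix.

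The corrected counts were summed per library within each cluster or class with at least 10 nuclei, scaled to 1000000 and taken as log2(CPM + 5), so fold changes of low genes are understated. A gene entered the fit if 3 or more of the sums reached 10 CPM, and the fit was made in limma (3.58.1, R 4.3.3) with a trend, no block and Benjamini-Hochberg adjustment, called at 0.05. Clusters needed 2 libraries per region. No count model was used, since the values are model output. Cluster differences were described without a test. Values of 1 gene of the marker list are not reported here. Python 3.11.15 with numpy 2.4.6, pandas 2.3.3 and scipy 1.17.1 gave levels and shares. Thinning to 4600 counts per nucleus left out 8.63% of nuclei, all from lumbar/sacral replicates 1 (44.1%) and 3 (13.6%). Intervals and limits for a share of 0 (3 counts) cover counting error only. Loci were taken from GENCODE for GRCm38, the build of the files. Sequences were not used here.

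The 4 genes, the pathway list and the markers were chosen with earlier results of these data known. Genes named are those 4, the 5 genes most like each by Pearson correlation over the clusters, and pathway genes that were called in a class or ranked in the top 3 of their role by range over clusters. Pathway calls within clusters were named in addition, after their values were seen.

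Same-numbered libraries come from the same pool of 4 mice by the study's methods, which divide each cord into the 3 regions, and by the sexes in the labels, so the numbers pair the libraries. Deviations from region means correlated at 0.67 to 0.92 between libraries of replicate 1, 0.34 to 0.75 for replicate 2 and -0.22 to 0.85 for replicate 3, with 21 of 27 pairs over 0.1.

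The fit was tested on simulated data with 200 changed genes. Libraries were simulated independently, with the same dispersion for every gene, and only genes with a mean of 20 CPM or more were changed. Recovery of lower genes, or with libraries that deviate together by pool, was not tested. In visceral MNs, 79% of 2-fold and 100% of 4-fold changes were recovered, among 9797 and 9752 genes. In V3 it was 30% and 98.5%, among 9796 and 9710 genes. No change was recovered in the wrong direction. Alternatives were another scaling, pseudocounts of 1 and 20, no filter, at least 30 nuclei, the replicate block and leaving out each library. Omission of both male-pool rostral libraries, the comparison of effects between clusters and their settings were added after seeing the data.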

Additional observations from a re-analysis of the deposited data

Results flagged for a closer look

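The regional difference of Reln was not alike in all clusters that carry the gene. It was larger in V3 than in V5 by 4.11 (log2 scale, SE 0.315; limma adjusted p = 0.0103), with 602, 458 and 495 CPM in the lumbar/sacral libraries of V3 beside 230, 111 and 141 in those of V5, and it was larger in V3 than in I8 by 4.15 (SE 0.326; adjusted p = 0.000505). Both were picked out because the difference between the clusters passed a test of its own. The clusters compared were themselves chosen after the values were seen, so these tests are no independent support. In each library that holds both clusters, V3 stood below V5 and I8 in rostral libraries, and in lumbar/sacral libraries V3 stood above V5 and below I8. The comparison with V5 rests on 7 libraries and lost its call in 5 of the 7 fits that leave out 1 of them (adjusted p from 0.0505 to 0.233), while that with I8 kept its call in all such fits and lost it with a pseudocount of 1 (4.36, adjusted p = 0.0554). Fbn2, Gad2 and Slc5a7 also differed without overlap between regions of V3, as Slc5a7 did in V5. Their part in the Reln result was not tested. Single outlying libraries were not looked for by a formal rule, since each region holds 3 libraries.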

How the results depend on the processing

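The calls of Reln in V3, V2 and V6 kept their direction and an adjusted p under 0.05 in every alternative that could be fitted. The log2 difference ran from 3.63 to 4.47 in V3 (adjusted p up to 0.000696), from 2.50 to 3.87 in V2 (up to 0.0472) and from 3.01 to 4.03 in V6 (up to 0.0326). V6 with at least 30 nuclei could not be fitted. The replicate block changed 2 calls of 88, Dab1 in V5 and in V4, so that Dab1 was called in 2 clusters with the block, and it changed no other call of these genes. Leaving out both male-pool rostral libraries gave 1 cluster called for Dab1 and an adjusted p under 0.05 for Reln in visceral MNs (1.80), whose single-library omissions gave 1.55 to 2.10. Single omissions gave 0 to 1 clusters for Dab1 and for Vldlr. The pathway count in visceral MNs was 3 with scaling by the median of ratios, 8 with the paired fit and 2 to 5 over single omissions. In interneurons it was 1 with the paired fit, 1 without both male-pool libraries and 0 to 1 over single omissions.

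Values near 0 changed sign. For lumbar/sacral against rostral in skeletal MNs, scaling by the median of ratios, which moved the median of all genes from 0.12 to -0.01, gave -0.0428 for Vldlr and -0.111 for Lrp8. Single omissions gave -0.0756 to 0.172 for Vldlr and -0.0766 to 0.105 for Lrp8, and leaving out both male-pool libraries gave -0.0159 for Vldlr. Lrp8 in visceral MNs was 0.0954 without both (single omissions -0.246 to 0.0640) and in interneurons 0.106 (-0.191 to 0.0843). Reln in V5 ran from -0.445 to 0.0625 over single omissions and in I8 was 7.71e-05 with at least 30 nuclei. For thoracic against cervical, Vldlr in visceral MNs was 0.229 without both (single omissions -0.262 to 0.271), Lrp8 in visceral MNs ran from -0.0102 to 0.341 and Vldlr in interneurons from -0.169 to 0.0928. Reln in interneurons was -0.0466 with the median of ratios, -0.0141 with a pseudocount of 20, -0.990 without both and -0.781 to 0.808 over single omissions. The cause of these changes was not tested.

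The excess of V3 over V5 ran from 3.98 to 4.29 over single omissions, that of V6 over V5 from 3.41 to 3.75. With a pseudocount of 20, V2 over V5 was 2.35 (adjusted p = 0.00229) and V6 over V5 was 3.07 (0.00936), and with a pseudocount of 1, V3 over I8 was 4.36 (0.0554). Shares depend on depth and threshold: Dab1 in I3 was 36.2% after thinning and 22.7% with at least 2 counts, Lrp8 in S1 52.7% and 39.9%, Reln in V5 23.3% and Vldlr in I1 5.22% with at least 2. Vldlr in I7 was 48.9 CPM with at least 30 nuclei, where 1 library is left. Of 913 recomputed values for 79 results, 843 kept direction and side of the threshold or stayed within the spread.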
